A study of Arabidopsis thaliana with 24 samples.

Results

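The data compared how roots of 2 Arabidopsis thaliana crosses responded to abscisic acid (ABA), a plant hormone made during drought and salt stress, using 12 of the 24 RNA-seq libraries of the study. Every plant was an F1 hybrid carrying UAS::abi1-1, a transgene encoding a dominant form of the ABI1 phosphatase that blocks ABA signalling in the cells that make it. The transgene needs an activator to be expressed. In the UAS::abi1-1 x C24 cross, which the labels call wild type, no driver supplies it, and in the UAS::abi1-1 x J0571 cross the enhancer trap line J0571 does. J0571 is known mainly as a driver of expression in the cortex and endodermis, the ground tissue of the root, and the labels name no cells for it. Seedlings were 5 days old, and roots of about 1 cm were taken after 8 h with 1 µM ABA or a mock solution. Each of the 4 groups (C24 mock, C24 ABA, J0571 mock and J0571 ABA) held 3 pools of 50 to 100 seedlings. The libraries were chosen by their labels, and the value studied for each gene was its ABA response (ABA minus mock, as a log2 change) in J0571 minus that in C24. A positive difference therefore means a higher value in J0571, by a smaller fall or a larger rise. Whether the 3 pools of a group were sown separately is not stated, and the p-values measure the spread between pools, which may be technical. The 12 libraries of the other crosses, with the drivers J1721 and Q0990, entered the fit for its estimate of the spread and are given as a comparison where named.

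ABA binds receptors of the PYR/PYL family, and the occupied receptor holds back clade A protein phosphatases (PP2Cs) such as ABI1. SnRK2 kinases, which the phosphatases otherwise keep inactive, then switch on bZIP transcription factors of the ABF/ABI5 group, which bind the ABA response element (ABRE) in promoters. The targets protect cells from water loss, make compatible solutes such as proline, and alter cell walls and growth. In roots ABA acts tissue by tissue, and the endodermis is a known site of its action on growth and on suberin.

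The 300 bases before the annotated start of 4 genes with a changed response are shown because ABFs bind the core ACGTG of the ABRE, and these windows hold it. AT2G43140 and GLIP2 kept more of their level under ABA in J0571 than in C24, and ALMT12 and AT5G66780 were raised less. The sequences are those of RefSeq, assembly TAIR10.1, read 5′ to 3′ on the strand of the gene. Their positions are chr2:17935749-17936048 on the reverse strand for AT2G43140, chr1:20142844-20143143 on the forward strand for GLIP2, chr4:9975065-9975364 on the forward strand for ALMT12 and chr5:26663200-26663499 on the forward strand for AT5G66780. The build used for counting is not given in the sources used here, and the deposited table holds no coordinates. Capitals mark ACGTG on either strand, written CACGT where it lies on the other strand, so that a G-box, CACGTG, counts on both strands.
AT2G43140: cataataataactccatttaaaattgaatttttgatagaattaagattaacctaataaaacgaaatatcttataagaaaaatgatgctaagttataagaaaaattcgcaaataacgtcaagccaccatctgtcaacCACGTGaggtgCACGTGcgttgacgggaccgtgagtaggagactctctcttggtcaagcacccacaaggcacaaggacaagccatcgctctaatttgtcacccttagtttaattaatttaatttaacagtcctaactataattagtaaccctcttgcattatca
GLIP2: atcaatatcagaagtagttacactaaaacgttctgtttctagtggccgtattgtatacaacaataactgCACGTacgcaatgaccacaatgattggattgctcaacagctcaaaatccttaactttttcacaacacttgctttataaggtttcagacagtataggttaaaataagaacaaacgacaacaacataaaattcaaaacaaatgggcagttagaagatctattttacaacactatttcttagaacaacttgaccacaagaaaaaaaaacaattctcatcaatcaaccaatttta
ALMT12: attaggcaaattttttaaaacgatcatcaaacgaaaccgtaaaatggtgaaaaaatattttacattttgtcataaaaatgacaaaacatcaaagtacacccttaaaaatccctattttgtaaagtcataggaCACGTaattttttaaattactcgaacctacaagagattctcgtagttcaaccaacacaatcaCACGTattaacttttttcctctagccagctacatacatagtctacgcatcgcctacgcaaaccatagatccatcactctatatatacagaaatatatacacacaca
AT5G66780: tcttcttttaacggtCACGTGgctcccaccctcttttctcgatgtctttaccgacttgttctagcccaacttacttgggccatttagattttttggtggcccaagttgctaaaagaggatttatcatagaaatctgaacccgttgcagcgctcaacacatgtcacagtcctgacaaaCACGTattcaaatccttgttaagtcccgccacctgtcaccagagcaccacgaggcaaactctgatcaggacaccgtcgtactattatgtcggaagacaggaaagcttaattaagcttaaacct
Upstream of AT2G43140 both stretches in capitals are G-boxes. AT5G66780 holds 1 G-box and 1 further core, ALMT12 holds 2 cores, and GLIP2 holds 1. ACGTG on either strand occurred in the window of 21 of the 59 genes with a higher response (35.6%) and of 10 of the 27 with a lower response (37.0%), against 5587 of the 21266 genes tested that have such a window (26.3%). Genes that ABA raised in the J1721 and Q0990 crosses held it in 40.5% of windows and genes that ABA lowered there in 30.0%. The 27 were raised by ABA in C24, and 10 of 27 is too few to set their share apart from the first. Of the 59, 58 were lowered by ABA in C24, and 21 of 59 is too few to set their share apart from the second. G-boxes, which are a subset of these matches, stood upstream of 7 of the 59 (11.9%), 2 of the 27 (7.41%) and 7.88% of all windows, against 15.8% of the raised and 6.54% of the lowered genes. The windows can overlap a neighbouring gene, and a match describes the letters only.

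The 24 libraries held 38542817 to 61555387 counts. Replicates differed by more than counting noise in all 4 groups (chi-square over its degrees of freedom 10.4 to 34.8), and none was a copy of another. C24 mock library 1 stood farthest from its replicates, with a root mean square difference of 0.304 in log2 CPM from each, against 0.198 between the other 2. The root lists of Casparian strip, suberin, root hair and root cap genes had no member at 0 in any of the 4 groups, and 15 shoot and chloroplast genes summed to 74.2 to 145 CPM (counts per 1e+06 counts of the library, after scaling) per library. ABI1, whose counts can include reads of the transgene, stood at 105, 93.7 and 94.3 CPM in C24 mock libraries and 117, 115 and 112 in J0571 mock libraries. Below, where a cross has a pair of value sets, mock libraries come first and ABA libraries second. With ABA ABI1 stood at 380.2, 313 and 282 in C24 and 273, 339 and 301 in J0571. The mock libraries did not overlap and the ABA libraries did. Its response differed by -0.33 ± 0.17 (SE; adjusted p = 0.65), and its level in mock libraries was not called different (adjusted p = 0.478).

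The ABA response of 86 of the 21315 genes tested differed between the crosses (0.403%; edgeR's quasi-likelihood test, Benjamini-Hochberg adjusted p under 0.05). The response was higher in J0571 for 59 (0.277%) and lower for 27 (0.127%). DESeq2 turned that balance, with 91 genes higher and 106 lower. Of the 59, 58 were lowered by ABA in C24, and the exception was AGP30. All 27 were raised by ABA in C24. ABA responses themselves were frequent, at 7252 genes in C24 (34%) and 5169 in J0571 (24.3%). In J0571, 33 of the 59 were not called as responding, 23 changed in the same direction as in C24 and 3 in the opposite one. Of the 27, the numbers were 10, 14 and 3. The median difference was 1.09 over the 59, with a median response of -1.42 in C24 and -0.18 in J0571. Over the 27 it was -0.83, with 1.33 in C24 and 0.32 in J0571. The J0571 response passed its own test downward for 9.87% of all genes and upward for 14.4%, and that of C24 for 15.4% and 18.6%. Without C24 ABA library 3, and likewise without J0571 mock library 1, 57 genes were called, and without C24 mock library 1, which stood apart, 65 were. The difference selected these genes, so the medians describe them and test nothing.

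**Figure D1:**
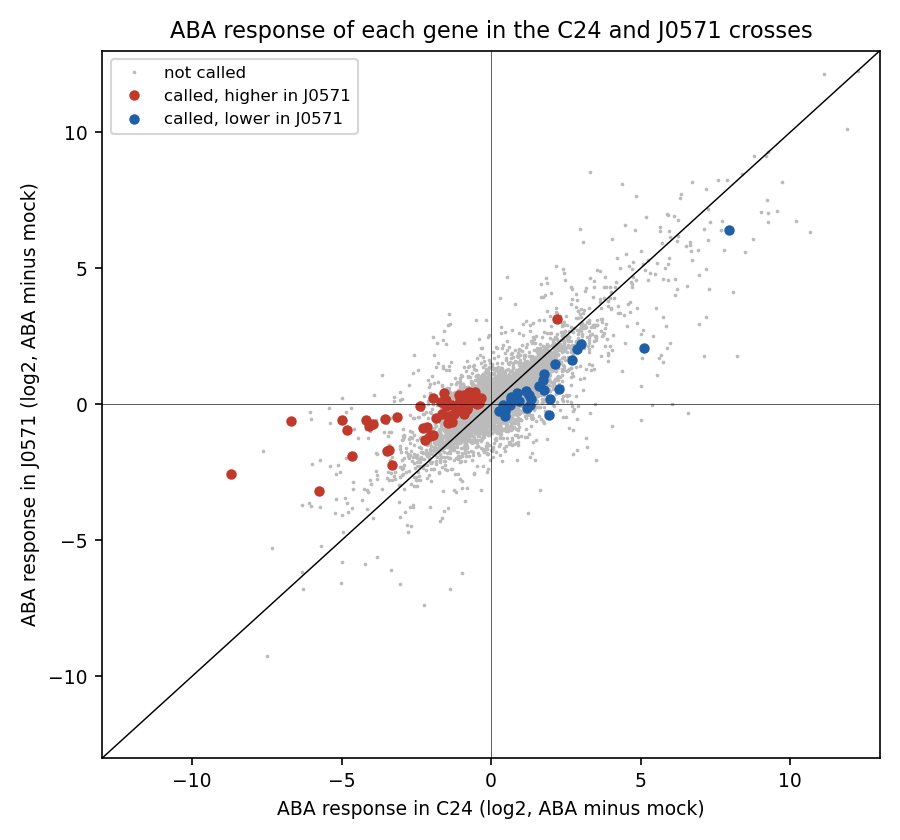
ABA response (fitted log2 change, ABA minus mock) of the 21315 genes tested in C24 (x axis) against J0571 (y axis), with the 59 genes of a higher response in J0571 in red, the 27 of a lower response in blue and the line of equal responses. Red points lie on the left and blue points on the right, closer to 0 on the y axis than on the x axis except for AGP30, and responses of genes with a group at 0 counts are fitted values with no interpretable size.

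The 59 and the 27 parted in the ABA libraries more than in the mock libraries. With ABA all 3 J0571 values lay above all 3 C24 values for 57 of the 59, and below them for 26 of the 27. Over all genes 11.3% lay wholly above and 10.8% wholly below. In mock libraries the crosses did not overlap in either direction for 27 of the 59 and 13 of the 27 (all genes: 8.85% above and 7.04% below). The median J0571 minus C24 difference of the 59 was 0.04 in mock libraries and 1.21 with ABA, and that of the 27 was 0.14 and -0.67. The level in mock libraries was called different for 6 of the 59 and 4 of the 27 (all genes: 0.474%). With ABA it was called higher in J0571 for 55 of the 59 (2.05%) and lower for 20 of the 27 (1.89%). These splits reuse the libraries of the difference and are given as a description.

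Among the ABA receptors, PYL6 and PYL4 were lowered less in J0571 than in C24. PYL6 stood at 50.9, 40.7 and 38.6 CPM in C24 mock libraries and at 4.22, 3.16 and 4.35 with ABA. In J0571 it stood at 59.1, 63.7 and 65.6 in mock libraries and 18.9, 21.1 and 17.8 with ABA. ABA libraries were lower in both crosses, J0571 ABA libraries lay above all C24 ABA libraries, and the mock libraries did not overlap either, the J0571 ones being higher (adjusted p = 0.0388). The difference in response was 1.77 ± 0.18, with log2 changes of -3.47 in C24 and -1.71 in J0571, adjusted p = 4.27e-06. PYL4 stood at 118 ± 18.5 CPM (SD, n = 3) in C24 mock and 28.4 ± 3.95 in C24 ABA libraries, with 129.8 ± 10.2 and 58.2 ± 5.08 for J0571, and its response differed by 0.89 ± 0.18 (adjusted p = 0.0175). Its call was lost in 6 of the 12 fits that each left out 1 library, with the highest adjusted p, 0.074, without C24 ABA library 1. PYL6 kept its call in all 12.

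The other 9 receptors tested were not called. PYR1, the founding member, was lowered in both crosses (-1.0 and -0.67; difference 0.33 ± 0.1, unadjusted p = 0.00245, adjusted p = 0.201), and PYL8, a receptor known for its role in roots, showed -0.64 and -0.32 (unadjusted p = 0.00787, adjusted p = 0.342). PYL5 showed a difference of 0.29 ± 0.23, PYL1 0.07 ± 0.11, PYL2 -0.27 ± 0.21, PYL3 -0.07 ± 0.53, PYL7 0.41 ± 0.46, PYL9 -0.08 ± 0.17 and PYL12 -0.35 ± 0.44. Of the 11 receptors, 2 were called higher and 0 lower (all genes: 0.277% and 0.127%), 7 differences lay above 0 and the median was 0.29. Over all genes the median was 0.01, and DESeq2 called the same 2 receptors.

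None of the 9 clade A PP2Cs, the phosphatases that the receptors inhibit, was called, and none had an unadjusted p under 0.05 (edgeR; DESeq2 called 0 as well). All 9 were raised by ABA in both crosses, with a median response of 1.81 in C24 and 1.89 in J0571, and the median difference was -0.05. ABI1 had the lowest difference, and the others were -0.28 ± 0.57 for HAI1, -0.27 ± 0.2 for HAB1, -0.15 ± 0.14 for HAB2, -0.05 ± 0.31 for ABI2, 0.16 ± 0.35 for PP2CA, 0.17 ± 0.4 for AHG1, 0.72 ± 1.14 for HAI3 and 0.73 ± 2.0 for HAI2. HAI2 and HAI3 were under 1 CPM in every mock library, and their 95% intervals ran from -3.40 to 4.86 and from -1.64 to 3.09. AT1G68410, a phosphatase of the PP2C family outside this list and chosen after its values were seen, was called lower. Its values in C24 were 61.5, 58.9 and 56.5 CPM in mock and 93, 93.5 and 92.4 in ABA libraries, and those in J0571 were 60.1, 66.2 and 58.1 and 76.8, 69.6 and 77.3. ABA libraries were higher than mock libraries in both crosses and highest in C24 (difference -0.38 ± 0.08, adjusted p = 0.039). That call was lost in 9 of the 12 leave-one-out fits (highest adjusted p 0.128, without J0571 mock library 2).

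Of the 9 SnRK2 kinases tested, 0 were called by edgeR or DESeq2, and 1 had an unadjusted p under 0.05. SNRK2.7 came nearest, with 22.9 ± 0.587 and 94.5 ± 2.0 CPM in C24 against 20.8 ± 2.58 and 64.1 ± 2.88 in J0571 (difference -0.42 ± 0.14, unadjusted p = 0.00499, adjusted p = 0.277). The 3 kinases most closely tied to ABA showed -0.05 ± 0.1 (SNRK2.2), 0.19 ± 0.21 (SNRK2.3) and -0.22 ± 0.11 (SNRK2.6). SNRK2.1, SNRK2.4, SNRK2.5, SNRK2.8 and SNRK2.10 lay between -0.13 and 0.3. The median of the 9 was -0.05. Among 22 transcription factors of the pathway 0 were called by either tool, 1 had an unadjusted p under 0.05, 15 differences lay below 0 and the median was -0.15. ABI5, a bZIP factor that acts downstream of the kinases, showed 0.85 in C24 and 0.07 in J0571 (difference -0.78 ± 0.3, unadjusted p = 0.0175, adjusted p = 0.453).

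The genes with the largest higher response included a transcription factor and 3 genes of recognition or signalling. AT2G43140 encodes a basic helix-loop-helix factor. It stood at 11.1, 11 and 10.9 CPM in C24 mock libraries and at 0.33, 0.178 and 0.667 with ABA. The J0571 values were 12.4, 12.3 and 12.9 in mock and 8.03, 4.63 and 6.83 in ABA libraries. J0571 lay above C24 without overlap in both treatments, but the mock difference was not called (adjusted p = 0.768). The factor was under 1 CPM in all C24 ABA libraries (difference in response 3.86 ± 0.35, with log2 changes of -4.81 in C24 and -0.95 in J0571, adjusted p = 5.61e-07). AT3G46400, a leucine-rich repeat receptor kinase gene, stood at 4.87, 3.9 and 5.23 CPM in C24 mock and 0.212, 0.245 and 0.368 in C24 ABA libraries. Its J0571 values were 3.61, 4.03 and 4.22 and 2.64, 2.65 and 1.53. The mock libraries of the crosses overlapped, the ABA libraries did not, and the response differed by 3.26 ± 0.44 (adjusted p = 0.00019).

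AT1G78860, a gene for a mannose-binding lectin, was lowest in the C24 ABA libraries. It read 24.4, 27.4 and 33 CPM in C24 mock and 8.84, 8.6 and 9.23 in C24 ABA libraries, and 36.1, 37.7 and 42.6 in J0571 mock and 44.7, 42.3 and 37.6 in J0571 ABA libraries. J0571 values overlapped between treatments and lay above all C24 values, but the mock difference was not called (adjusted p = 0.149). The response differed by 1.77 ± 0.19, with log2 changes of -1.67 in C24 and 0.1 in J0571 (adjusted p = 1.11e-05). AT3G20360 encodes a TRAF-like protein. Its C24 values were 6.1, 6.62 and 5.62 CPM in mock and 0.495, 0.557 and 0.667 in ABA libraries. In J0571 they were 6.88, 9.07 and 7.57 and 2.57, 1.89 and 2.85. J0571 lay above C24 in mock libraries, a difference that was not called (adjusted p = 0.531). ABA libraries were lower in both crosses and lowest in C24 (difference in response 1.73 ± 0.33, adjusted p = 0.0114). Its adjusted p reached 0.0592 without C24 ABA library 1, and 2 of the 12 leave-one-out fits lost the call.

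Of the cell wall genes, XTH16 had the smallest p. It encodes a xyloglucan endotransglucosylase/hydrolase, an enzyme that cuts and rejoins the xyloglucan chains between cellulose fibres. It stood at 47, 49.4 and 49.2 CPM in C24 mock libraries and 11.6, 14 and 12.2 with ABA. In J0571 it stood at 44.3, 51.4 and 52.6 and 60.8, 62.3 and 51.4. The C24 ABA libraries were far below the other 9, J0571 mock and ABA libraries overlapped, and J0571 ABA libraries lay above the C24 mock libraries. The difference was 2.18 ± 0.15, with log2 changes of -1.94 in C24 and 0.23 in J0571, adjusted p = 4.82e-09, the smallest p of all genes. The J0571 response was not called (adjusted p = 0.0993). Of the 29 XTH genes tested XTH16 was the only one called, and most of the family had differences of the other sign: 20 lay below 0, the median was -0.23, and 10 had an unadjusted p under 0.05 with a lower value against 3 with a higher one. XTH13 (-0.86 ± 0.2), XTH14 (-0.71 ± 0.17) and XTH12 (-0.81 ± 0.2) came near the threshold, with adjusted p = 0.0535, 0.0573 and 0.0973. Over all genes 4.13% had such a p with a higher value and 4.05% with a lower one, and DESeq2 called 1 XTH gene higher and 6 lower.

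Prx37, EXPA8 and CSLA11 were lowered in C24 and not called as responding in J0571. Prx37 encodes a class III peroxidase, an apoplastic enzyme that oxidizes phenolics and wall polymers. It stood at 50.01, 58.5 and 58.1 CPM in C24 mock and 23.8, 21.6 and 22.2 in C24 ABA libraries, and at 78.2, 78.3 and 71.7 in J0571 mock and 78.2, 79 and 65.8 in J0571 ABA libraries. C24 ABA libraries were the lowest, and J0571 exceeded C24 in mock libraries too (adjusted p = 0.00381). The difference was 1.27 ± 0.11, with log2 changes of -1.3 in C24 and -0.03 in J0571, adjusted p = 2.84e-07. AT4G11290, a second peroxidase and named after its values were seen, differed by 0.96 ± 0.1, with log2 changes of -0.85 in C24 and 0.1 in J0571, adjusted p = 4.27e-06. EXPA8, an expansin that loosens walls, differed by 1.24 ± 0.27, with log2 changes of -0.92 in C24 and 0.33 in J0571, and CSLA11, of the cellulose synthase-like A family that makes mannans, by 1.45 ± 0.21, with log2 changes of -1.51 in C24 and -0.05 in J0571. The adjusted p was 0.0346 for EXPA8 and 0.000489 for CSLA11. EXPA8 lost its call in 9 of 12 leave-one-out fits (up to 0.12, without J0571 ABA library 3) and was the only called member of 24 expansins, whose median was -0.15. PMEPCRA, a pectin methylesterase, was lowered in both crosses and less in J0571 (0.53 ± 0.08, with log2 changes of -0.89 in C24 and -0.36 in J0571, adjusted p = 0.00118).

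Fasciclin-like arabinogalactan proteins, which are glycoproteins of the cell surface, changed in both directions. FLA13 (0.82 ± 0.13, with log2 changes of -0.83 in C24 and -0.003 in J0571, adjusted p = 0.00196) and FLA9 (0.46 ± 0.1, with log2 changes of -0.4 in C24 and 0.06 in J0571, adjusted p = 0.0321) were higher in J0571. FLA6 was lower. Its values were 2.38, 3.15 and 3.51 CPM in C24 mock and 13.7, 15.1 and 15.3 in C24 ABA libraries, 5.53, 6.18 and 7.33 in J0571 mock and 9.01, 10.01 and 9.07 in J0571 ABA libraries. J0571 lay above C24 in mock libraries and below it with ABA, without overlap in either (difference -1.72 ± 0.32, with log2 changes of 2.28 in C24 and 0.56 in J0571, adjusted p = 0.00866). Of 16 members 2 were called higher and 1 lower (all genes: 0.277% and 0.127%), and the median was 0.06. FLA9 lost its call in 8 of the 12 leave-one-out fits (up to 0.172, without J0571 mock library 1). AGP30, a root arabinogalactan protein gene, was the only one of the 59 that ABA raised in C24. It stood at 51.9 ± 7.23 CPM without and 239 ± 4.94 with ABA in C24, and at 24.7 ± 3.92 and 216 ± 11.9 in J0571. The lower start in J0571 mock libraries was itself called (adjusted p = 0.000259), and the difference in response was 0.93 ± 0.2 (adjusted p = 0.0309; up to 0.169 without J0571 mock library 2, with the call lost in 9 of 12 such fits).

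GLIP2, AT3G27950 and GLL22 were lowered by ABA in C24 and less so in J0571. GLIP2 encodes a GDSL lipase known from pathogen defence. It stood at 29, 26.7 and 21.4 CPM in C24 mock libraries and 1.06, 0.691 and 1.29 with ABA. The J0571 values were 31, 30.1 and 29.1 and 8.4, 8.96 and 6.74. J0571 lay above C24 in both treatments without overlap, but the mock difference was not called (adjusted p = 0.701). ABA libraries were lower in both crosses (difference in response 2.76 ± 0.31, with log2 changes of -4.66 in C24 and -1.91 in J0571, adjusted p = 1.71e-05). AT3G27950, another GDSL lipase gene, read 9.46, 12.2 and 10.9 CPM in C24 mock and 0.401, 0.0669 and 0.138 in C24 ABA libraries. In J0571 it read 14.7, 13.1 and 15.9 and 1.23, 1.73 and 1.81. J0571 mock libraries lay above C24 mock libraries, a difference that was not called (adjusted p = 0.396). J0571 ABA libraries lay between the C24 ABA libraries and all mock libraries (difference 2.57 ± 0.4, with log2 changes of -5.75 in C24 and -3.18 in J0571, adjusted p = 0.00118). The C24 ABA libraries held only 17, 3 and 6 counts of AT3G27950. Its difference ran from 2.15 to 3.52 in leave-one-out fits, so its size is uncertain. GLL22, an abundant GDSL lipase-like gene, stood at 1149 ± 33.6 CPM in C24 mock and 298 ± 20.2 in C24 ABA libraries, against 1079 ± 45.7 and 488 ± 25.5 in J0571 (0.8 ± 0.13, adjusted p = 0.00207). By RefSeq's product names, 3 of 63 GDSL lipases, 2 of 66 class III peroxidases and 2 of 19 dirigent-like proteins were called higher and 0 lower (all genes: 0.277% and 0.127%). Their median differences were 0.01, -0.08 and 0.07. At an unadjusted p under 0.05 the GDSL lipases had 7 higher and 2 lower values, the peroxidases 5 and 7, and the dirigent-like proteins 2 and 3. Their median response in C24 was 0.12 for the GDSL lipases, -0.05 for the peroxidases and 0.11 for the dirigent-like proteins. These families were chosen after the values were seen. The dirigent genes AT4G11190 (1.41 ± 0.19) and AT4G11210 (0.9 ± 0.14) lie 2 genes apart on chromosome 4.

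A run of 3 adjacent genes on chromosome 5, named after their values were seen, carried RefSeq's product name of receptor-like protein kinase-related proteins. AT5G41280 stood at 0.828, 1.24 and 1.27 CPM in C24 mock libraries, 0 counts in all 3 C24 ABA libraries, 1.39, 0.897 and 0.808 in J0571 mock and 0.185, 0.222 and 0.114 in J0571 ABA libraries. AT5G41290 stood at 1.63, 2.23 and 2.45 and 0.0236, 0.201 and 0.115 in C24 and at 1.35, 1.57 and 1.74 and 0.949, 0.69 and 1.45 in J0571. AT5G41300 stood at 2.26, 1.75 and 1.57 and 0, 0.0223 and 0.023 in C24 and at 1.51, 0.997 and 1.49 and 1.11, 0.601 and 0.881 in J0571. All were low genes that nearly vanished from the C24 ABA libraries and were detected in every J0571 ABA library (adjusted p = 0.0112, 0.00261 and 0.000146). No fold is given, because C24 ABA counts were few or 0, and reads of similar neighbouring copies may not have been told apart. Without C24 ABA library 3 the call of AT5G41280 was lost (adjusted p = 0.0515).

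PTR3, OCT3, SKOR and YSL7 are transporters among the 59. PTR3 encodes a transporter of short peptides in the nitrate and peptide transporter family. It stood at 5.67, 3.65 and 5.25 CPM in C24 mock and 0.141, 0.535 and 0.253 in C24 ABA libraries. The J0571 values were 6.85, 7.85 and 6.62 and 4.35, 4.94 and 3.77. J0571 lay above C24 in mock libraries, a difference that was not called (adjusted p = 0.27), and the fall within J0571 was called (adjusted p = 0.0127). All C24 ABA values were under 1 CPM, and J0571 ABA libraries overlapped the C24 mock libraries (difference 3.23 ± 0.35, with log2 changes of -3.94 in C24 and -0.71 in J0571, adjusted p = 1.06e-05). It was the only called member of 25 of that family, whose median difference was -0.09. OCT3, an organic cation transporter, differed by 1.41 ± 0.22, with log2 changes of -1.06 in C24 and 0.34 in J0571, adjusted p = 0.00118. SKOR, the outward channel that loads potassium into the xylem, differed by 1.22 ± 0.26, with log2 changes of -0.93 in C24 and 0.29 in J0571, adjusted p = 0.0346, and was the only called gene of 31 for potassium and sodium transport, whose median difference was -0.07. YSL7, of a family that carries metal chelates, differed by 0.7 ± 0.14, with log2 changes of -0.62 in C24 and 0.08 in J0571, adjusted p = 0.0175. The calls of SKOR and YSL7 were lost in 9 and 3 of the 12 leave-one-out fits, up to 0.119 without C24 ABA library 1 and 0.0741 without J0571 mock library 1.

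**Figure D2:**
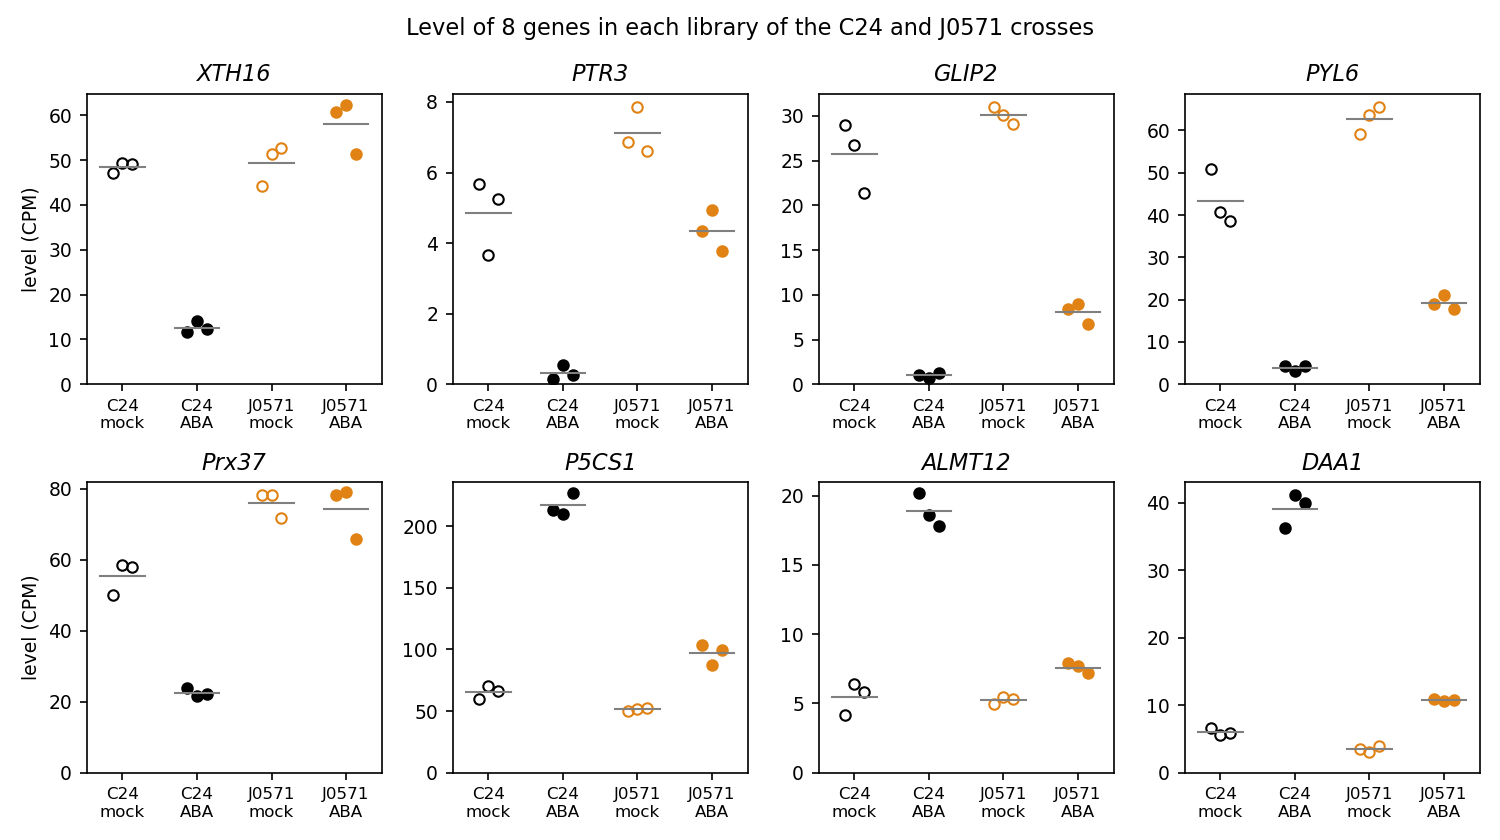
Level in CPM (linear axis from 0) of 8 genes in each of the 12 libraries, by cross and treatment, with open points for mock, filled points for ABA and a line at the mean of 3 libraries. XTH16, PTR3, GLIP2, PYL6 and Prx37 are lowest in the C24 ABA libraries, and P5CS1, ALMT12 and DAA1 are highest there.

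AT1G64910, AT1G10400 and GSTU11 are enzymes that conjugate small molecules, and each fell in C24. AT1G64910, which encodes a UDP-glycosyltransferase, stood at 5.67, 5.96 and 6.52 CPM in C24 mock and 0.448, 0.557 and 0.529 in C24 ABA libraries, and at 9.05, 6.62 and 8.16 and 5.81, 5.58 and 5.02 in J0571. J0571 lay above C24 in mock libraries, which was not called (adjusted p = 0.357), and the fall within J0571 was called (adjusted p = 0.0201). C24 ABA libraries were the lowest, and J0571 ABA libraries overlapped the C24 mock libraries (difference 3.02 ± 0.27, with log2 changes of -3.56 in C24 and -0.54 in J0571, adjusted p = 5.61e-07). AT1G10400, of the same superfamily, read 7.73, 9.84 and 7.26 and 1.72, 1.43 and 1.63 in C24 and 9.69, 8.67 and 8.38 and 9.17, 7.9 and 8.38 in J0571. J0571 mock and ABA libraries overlapped (difference 2.31 ± 0.26, with log2 changes of -2.38 in C24 and -0.07 in J0571, adjusted p = 1.42e-05). Of 110 genes with this product name, a family chosen after the values were seen, 4 were called higher and 0 lower (all genes: 0.277% and 0.127%), with a median difference of -0.04 and 10 higher and 9 lower values at an unadjusted p under 0.05. GSTU11, a tau class glutathione transferase, read 3.01, 2.87 and 3.56 CPM in C24 mock and 0.354, 0.423 and 0.276 in C24 ABA libraries, 4.04, 4.72 and 4.44 in J0571 mock and 2.87, 3.65 and 3.15 in J0571 ABA libraries. J0571 lay above C24 in mock libraries, a difference that was not called (adjusted p = 0.512). The gene was under 1 CPM in all C24 ABA libraries, and J0571 ABA libraries overlapped the C24 mock libraries (difference 2.7 ± 0.43, with log2 changes of -3.15 in C24 and -0.45 in J0571, adjusted p = 0.00163). It was the only called gene of 35 tau and phi members, whose median was 0.04.

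MIPS3, MDHAR, MSRB9, PDCB3 and SBP3 are further named genes of a higher response. MIPS3, which catalyses the first step of inositol synthesis, differed by 0.76 ± 0.12, with log2 changes of -1.42 in C24 and -0.67 in J0571, adjusted p = 0.00173. MDHAR, which regenerates ascorbate, differed by 0.61 ± 0.1, with log2 changes of -0.79 in C24 and -0.18 in J0571, adjusted p = 0.00198. MSRB9, a methionine sulfoxide reductase that repairs oxidized proteins, was lowered in C24 and raised in J0571 (0.57 ± 0.09, with log2 changes of -0.33 in C24 and 0.24 in J0571, adjusted p = 0.00198). PDCB3, a callose-binding protein of plasmodesmata, did the same (0.98 ± 0.18, with log2 changes of -0.54 in C24 and 0.44 in J0571, adjusted p = 0.00945), although its adjusted p was 0.0516 without J0571 mock library 1. SBP3, of the selenium-binding family, differed by 0.98 ± 0.18, with log2 changes of -0.92 in C24 and 0.05 in J0571, adjusted p = 0.00904. AT1G09750, an aspartyl protease gene whose promoter is used as a cortex marker and which was named after its values were seen, stood at 21.7, 19.6 and 21.7 CPM in C24 mock and 12.9, 12.7 and 11.8 in C24 ABA libraries. In J0571 it stood at 13.6, 16.8 and 18.1 and 22, 19.1 and 17.3. C24 ABA libraries were the lowest and J0571 treatments overlapped. J0571 lay below C24 in mock libraries and above it with ABA (1.02 ± 0.17, adjusted p = 0.00297). The summed level of 10 ground tissue regulators overlapped between the crosses in both treatments. It was 293 to 307 CPM in C24 mock and 292 to 301 in J0571 mock libraries, and 274 to 288 and 261 to 295 with ABA. In these bulk samples fewer cells of a type and less RNA per cell cannot be told apart, and neither was tested.

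AT5G66780 and P5CS1 were among the 27 genes of a lower response. AT5G66780 encodes a late embryogenesis abundant (LEA) protein. It stood at 0.226, 0.412 and 0.277 CPM in C24 mock and 11, 10.7 and 10.9 in C24 ABA libraries, and at 0.297, 0.379 and 0.545 in J0571 mock and 0.741, 2.65 and 1.83 in J0571 ABA libraries. C24 ABA libraries agreed closely and lay far above all others, and J0571 ABA libraries spread over several-fold (difference -3.04 ± 0.55, with log2 changes of 5.12 in C24 and 2.08 in J0571, adjusted p = 0.00666, and 0.0505 without J0571 mock library 3). P5CS1, the stress-induced enzyme of the first step of proline synthesis, read 59.8, 70.3 and 66.4 CPM in C24 mock and 213, 209.9 and 227 in C24 ABA libraries. In J0571 it read 50.4, 51.9 and 52.7 and 103, 87.4 and 99.6. ABA libraries were higher in both crosses and highest in C24, while J0571 mock libraries lay below C24 mock libraries (adjusted p = 0.0473). The difference was -0.82 ± 0.11, with log2 changes of 1.73 in C24 and 0.91 in J0571, adjusted p = 0.00019. It was the only called gene of 8 for proline metabolism and transport, whose median was -0.11.

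The LEA and dehydration list showed 0 called members among 28 by edgeR and 3 by DESeq2 (LEA7, XERO2 and RD29A, all lower), with 23 differences below 0 and a median of -0.36, or -0.35 without 3 members that had no counts in a group. Over all genes the median was 0.01. A lower value had an unadjusted p under 0.05 for 9 members and a higher value for 0, while 4.05% of all genes had the first. XERO2, a dehydrin, came nearest, at 188 ± 24.7 and 625 ± 69.8 CPM in C24 and 197 ± 26.9 and 414 ± 33.2 in J0571 (-0.67 ± 0.16, adjusted p = 0.0834). RD29A, a classic ABA and drought marker, reached 569 ± 61.5 CPM with ABA in C24 and 338 ± 14.2 in J0571 (-0.63 ± 0.17, adjusted p = 0.138). The others of the 9 were LEA7 (-1.76 ± 0.54), GOLS2 (-2.03 ± 0.81), KIN1 (-0.69 ± 0.23), KIN2 (-0.42 ± 0.16), LEA14 (-0.41 ± 0.13), ERD10 (-0.37 ± 0.12) and COR47 (-0.26 ± 0.11), with adjusted p of 0.239 to 0.493. RAB18, a dehydrin, showed -1.04 ± 0.64, SAG21 -0.44 ± 0.34, RD22 -0.42 ± 0.29, LTP3 -0.53 ± 0.28, XERO1 -0.35 ± 0.55, COR413-PM1 -0.25 ± 0.15, LEA4-5 -0.2 ± 0.43, ERD1 -0.17 ± 0.14 and ERD14 -0.11 ± 0.14. EM6 (-0.05 ± 0.6), RD21A (-0.05 ± 0.15), RD29B (0.03 ± 0.48), GOLS1 (0.04 ± 0.38), LTP4 (0.15 ± 1.09), COR413IM1 (0.22 ± 0.82) and LEA18 (0.3 ± 0.73) lay near or above 0. RD20, COR15A and COR15B had no counts in mock libraries of either cross, so no difference is given. RD20 stood at 13.4 ± 4.16 CPM with ABA in C24 and 13.3 ± 4.37 in J0571.

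ALMT12, ABCG22 and DAA1 rose less in J0571 than in C24. ALMT12 encodes an anion channel that takes part in stomatal closure. It stood at 4.17, 6.41 and 5.83 CPM in C24 mock and 20.2, 18.6 and 17.8 in C24 ABA libraries, and at 4.96, 5.5 and 5.29 and 7.92, 7.67 and 7.19 in J0571. C24 ABA libraries stood apart from the other 9, and J0571 ABA libraries lay above J0571 mock libraries (difference -1.25 ± 0.22, with log2 changes of 1.78 in C24 and 0.53 in J0571, adjusted p = 0.00416). It was the only called gene of 7 ALMT and SLAC/SLAH channels. ABCG22, an ABC transporter linked to stomatal water loss, rose in both crosses (-0.78 ± 0.17, with log2 changes of 3.0 in C24 and 2.23 in J0571, adjusted p = 0.0428). DAA1, an AAA-type ATPase gene, read 6.57, 5.63 and 5.92 CPM in C24 mock and 36.2, 41.2 and 39.95 in C24 ABA libraries. In J0571 it read 3.45, 3.11 and 3.98 and 10.9, 10.6 and 10.8. J0571 lay below C24 in both treatments (mock adjusted p = 0.00559), and the response differed by -1.08 ± 0.18, with log2 changes of 2.7 in C24 and 1.62 in J0571, adjusted p = 0.00205. ABCG22 lost its call in 9 of the 12 leave-one-out fits (up to 0.169, without J0571 mock library 2), and ALMT12 and DAA1 kept theirs in all.

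BGLU24, AT2G39980, SUS3, FDH, POP2 and CSLC12 are enzymes among the 27. BGLU24, a beta-glucosidase, read 0.276, 0.516 and 0.301 CPM in C24 mock libraries and 104, 82.8 and 94.2 with ABA. In J0571 it read 0.526, 0.678 and 0.646 and 56.4, 53.9 and 46.9. Mock libraries were all under 1 CPM, with J0571 above C24, and ABA libraries of J0571 lay below those of C24 (difference -1.57 ± 0.35, with log2 changes of 7.97 in C24 and 6.39 in J0571, adjusted p = 0.0392). AT2G39980, an acyltransferase gene, read 1.61, 2.93 and 2.2 CPM in C24 mock and 9.15, 9.52 and 7.16 in C24 ABA libraries, 4.5, 1.49 and 2.18 in J0571 mock and 1.9, 2.16 and 2.12 in J0571 ABA libraries. Only the C24 ABA libraries were high, and J0571 mock library 1 stood above its replicates (difference -2.32 ± 0.53, with log2 changes of 1.93 in C24 and -0.39 in J0571, adjusted p = 0.0491). Without that library the difference was -1.78 and the adjusted p 0.241. SUS3, a sucrose synthase that cleaves sucrose, differed by -0.66 ± 0.14, with log2 changes of 2.13 in C24 and 1.47 in J0571, FDH, the mitochondrial formate dehydrogenase, by -0.65 ± 0.15, with log2 changes of 1.76 in C24 and 1.1 in J0571, and POP2, a transaminase that breaks down GABA, by -0.41 ± 0.08, with log2 changes of 0.39 in C24 and -0.02 in J0571. The adjusted p were 0.0303, 0.0414 and 0.00866. CSLC12, of the family that makes the xyloglucan backbone, rose in C24 and was not called as responding in J0571 (-0.8 ± 0.15, with log2 changes of 0.92 in C24 and 0.12 in J0571, adjusted p = 0.00882). BGLU24, SUS3 and FDH each lost the call in 9 of 12 leave-one-out fits, up to 0.18 without J0571 mock library 2, 0.108 without J0571 mock library 1 and 0.156 without J0571 ABA library 3.

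Signalling genes of a lower response mostly lost their calls when single libraries were left out. ROPGEF12 activates small ROP GTPases that polarize cells. It read 2.28, 2.93 and 2.71 CPM in C24 mock and 6.3, 4.97 and 7.11 in C24 ABA libraries, 3.11, 2.67 and 3.78 in J0571 mock and 2.92, 3.51 and 2.32 in J0571 ABA libraries. Values were highest in C24 ABA libraries, and J0571 treatments overlapped (difference -1.34 ± 0.28, with log2 changes of 1.21 in C24 and -0.13 in J0571, adjusted p = 0.0227). PATL2, a phosphoinositide-binding patellin of membrane traffic, differed by -0.43 ± 0.1, with log2 changes of 0.85 in C24 and 0.42 in J0571, BT4, a BTB and TAZ domain protein, by -0.47 ± 0.1, with log2 changes of 0.68 in C24 and 0.2 in J0571, and RAP2.11, a transcription factor of the potassium starvation response, by -0.65 ± 0.13, with log2 changes of 0.64 in C24 and -0.02 in J0571. The adjusted p were 0.0495, 0.0283 and 0.0117. MIF2, a mini zinc finger gene, stood at 0.29 ± 0.0736 and 1.14 ± 0.154 CPM in C24 and 0.961 ± 0.152 and 1.1 ± 0.169 in J0571, and its mock level was already higher in J0571 (adjusted p = 0.00559; difference -1.77 ± 0.39, adjusted p = 0.0392). Of the 12 leave-one-out fits 8 lost ROPGEF12 (up to 0.0931, without J0571 ABA library 3), 10 lost PATL2 (0.166, without J0571 ABA library 3), 8 lost BT4 (0.121, without J0571 mock library 1), 2 lost RAP2.11 (0.0553, without J0571 ABA library 3) and 11 lost MIF2 (0.121, without C24 mock library 3).

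The remaining genes given library by library were less well known. AT2G21130, a cyclophilin gene, read 9.94, 9.69 and 8.76 CPM in C24 mock and 30.2, 28.3 and 27 in C24 ABA libraries, and 6.42, 8.17 and 10.04 and 13, 14 and 12.1 in J0571. ABA libraries were higher in both crosses and highest in C24 (difference -0.93 ± 0.17, adjusted p = 0.00836). AT5G46870, an RNA-binding protein gene, read 3.84, 6.19 and 4.14 and 11.8, 12.7 and 11.2 in C24 and 7.01, 6.68 and 7.49 and 8.38, 8.1 and 7.55 in J0571. C24 ABA libraries were the highest, and J0571 mock libraries lay above C24 mock libraries (-1.15 ± 0.26, adjusted p = 0.0486). AT4G39700, with a heavy metal binding domain, read 1.91, 2.0 and 1.69 and 5.12, 4.3 and 4.3 in C24 and 2.86, 1.87 and 2.26 and 2.29, 1.85 and 2.63 in J0571. Only C24 ABA libraries were high (-1.33 ± 0.29, adjusted p = 0.0346). AT1G76470, of the Rossmann fold oxidoreductases, read 4.89, 7.28 and 5.46 and 15.7, 12.5 and 14.2 in C24 and 5.85, 5.24 and 7.09 and 6.51, 8.3 and 7.93 in J0571. C24 ABA libraries were again the highest (-0.94 ± 0.21, adjusted p = 0.0491). AT5G43230 read 7.33, 6.83 and 7.38 and 8.91, 9.07 and 11.9 in C24 and 9.5, 11.8 and 9.61 and 8.36, 8.61 and 6.04 in J0571. It was raised in C24 and lowered in J0571 (-0.91 ± 0.18, with log2 changes of 0.48 in C24 and -0.43 in J0571, adjusted p = 0.0197). In leave-one-out fits AT2G21130 kept its call, and the calls of AT5G46870, AT4G39700, AT1G76470 and AT5G43230 were lost in 11, 10, 9 and 4 of 12, up to 0.155 without C24 mock library 1, 0.135 without J0571 mock library 1, 0.155 without C24 mock library 1 and 0.0824 without C24 ABA library 3.

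Root hair genes gave 1 of the 27 and a list whose summed level is shown beside it. COW1, a phosphatidylinositol transfer protein needed for root hair growth, read 31.8, 37.4 and 33.9 CPM in C24 mock and 46.2, 48.6 and 46.3 in C24 ABA libraries. In J0571 it read 41.9, 41.5 and 41.2 and 39.2, 31.4 and 34.2. J0571 lay above C24 in mock libraries and below it with ABA, without overlap in either. ABA raised it in C24 and lowered it in J0571 (difference -0.7 ± 0.12, with log2 changes of 0.45 in C24 and -0.25 in J0571, adjusted p = 0.00435). It was the only called gene of 21 for root hairs and epidermis, of which DESeq2 called 5, all lower. The list had 16 differences below 0 and a median of -0.27. An unadjusted p under 0.05 came with a lower value for 10 members and a higher value for 0 (all genes: 4.05% and 4.13%). In C24 10 of the 21 were raised by ABA (all genes: 18.6%) and in J0571 3 were (14.4%). EXPA18 and EXPA7, expansins of root hairs, showed -0.59 ± 0.14 and -0.43 ± 0.1, PRP1, a structural wall protein, -1.09 ± 0.27, and RSL4, the transcription factor that sets hair growth, -0.5 ± 0.16, with adjusted p of 0.0582, 0.0751, 0.0812 and 0.291. The summed level of the 21 genes was 770.2 to 889 CPM in C24 mock and 1151 to 1184 in C24 ABA libraries, 919 to 981 in J0571 mock and 972 to 1029 in J0571 ABA libraries. The J0571 sums thus lay above those of C24 in mock libraries and below them with ABA. The part that the number of hair cells has in these values was not tested.

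Lists of endodermis, ground tissue and vessel genes held 0 called genes by edgeR or DESeq2. The 12 Casparian strip genes, which build the endodermal barrier, had a median difference of 0.03 and 1 unadjusted p under 0.05, and the 10 ground tissue regulators had 0.05 and 2. The Casparian sum was 611 to 674 CPM in C24 mock, 785 to 858 in C24 ABA, 559 to 579 in J0571 mock and 642 to 685 in J0571 ABA libraries, so that the crosses did not overlap in either treatment. CASP5 had a lower level in J0571 mock libraries, at 3.34, 4.74 and 5.92 against 37, 22.8 and 22 CPM (log2 difference -2.54, adjusted p = 6.26e-07), while its ABA response differed by 0.27 ± 0.3 (adjusted p = 0.901). Of 20 suberin genes 19 had a difference below 0, with a median of -0.26 and 5 with an unadjusted p under 0.05, all lower (all genes: 4.05%). ABCG20, an exporter of suberin precursors, was the nearest (difference -0.43 ± 0.15, adjusted p = 0.374). For 19 genes of secondary walls and vessel death the median was -0.15, with 17 below 0 and 2 with an unadjusted p under 0.05. For 14 VND factors and other xylem regulators the median was -0.24, with 11 below 0. An unadjusted p under 0.05 came with a lower value for 2 of these and a higher value for 1. With ABA the xylem regulators summed to 354 to 385 CPM in C24 and 252 to 314 in J0571, while mock libraries overlapped. The sums of the secondary wall list overlapped in both treatments.

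**Figure D3:**
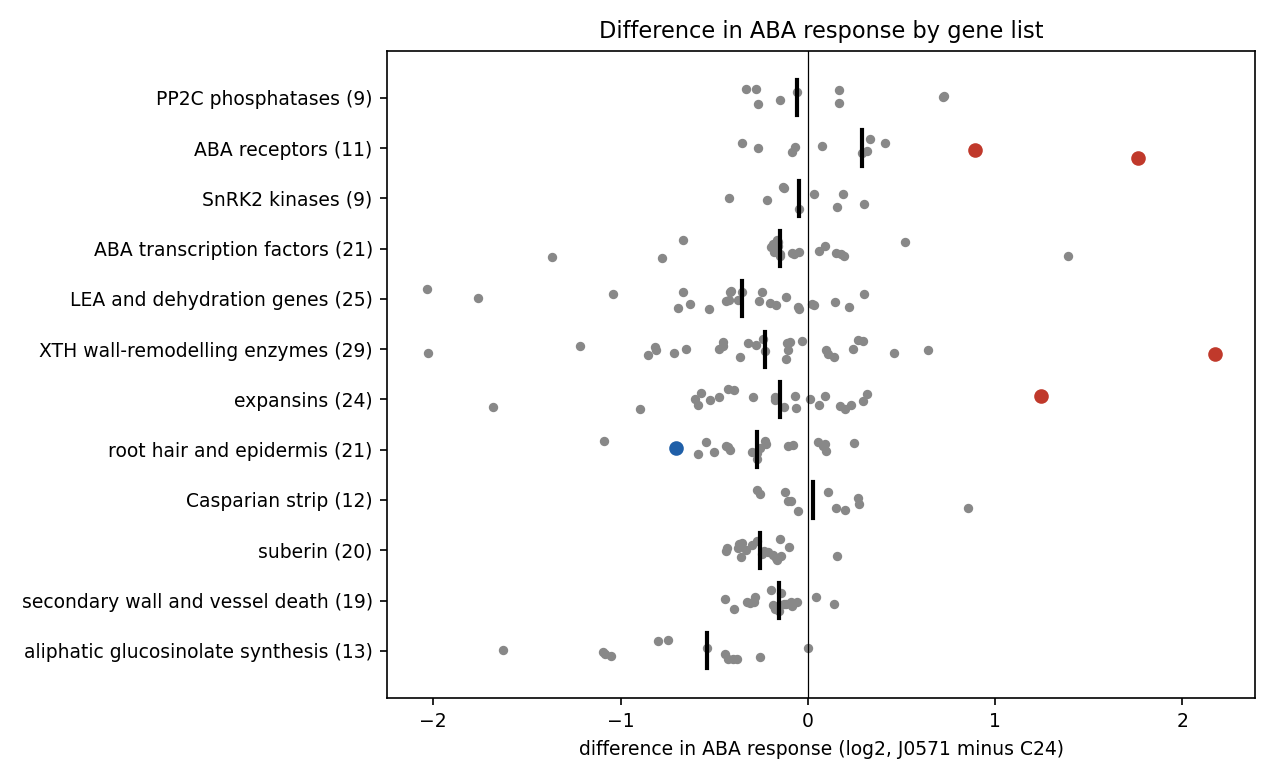
Difference in ABA response (log2, J0571 minus C24) of each tested member of 12 gene lists, with the number plotted in brackets, a bar at the median of those plotted, red for members called higher and blue for a member called lower. Members without counts in a group are left out, and most points of the LEA, suberin and root hair lists lie left of 0 although COW1 is their only called member.

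Of 47 lists, 12 held a called gene, and 15 of the 862 list genes tested were called (all genes: 0.403%). The lists were chosen with earlier results known, so nothing is read from that share. List medians ran from -0.54 (13 genes of aliphatic glucosinolate synthesis) to 0.38 (5 GASA peptides). The 34 called genes that have no name in RefSeq and are not among the 12 largest differences of a direction at a mean log2 CPM not under 0 were 30 of a higher response, from 0.49 with a median of 0.98, and 4 of a lower one, from -0.83 to -0.38. Of the 30, 5 had a mean level under 0 on the log2 CPM scale.

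The other crosses gave values from libraries outside the difference. Of the 59 genes, 55 were lowered by ABA in J1721 and 57 in Q0990 (all genes: 12.7% and 14.2%), and of the 27 genes 23 and 24 were raised (15.8% and 17%). Their median responses were -1.08 and -1.29 for the 59, and 0.94 and 1.17 for the 27, nearer to C24 than to J0571. The J1721 minus C24 difference called 36 genes in all (0.169%), with 62 by DESeq2, and the Q0990 minus C24 difference 0 (0%) by edgeR, with 954 at an unadjusted p under 0.05 and 3 by DESeq2. Both share the C24 libraries with the J0571 difference. Of the 86 genes, AT2G43140, XTH16 and PYL6 also fell less in J1721 than in C24, by 2.56, 0.87 and 1.26 (adjusted p = 0.00366, 0.0116 and 0.00366). AT2G43140 was not called between J0571 and J1721 (1.29, adjusted p = 0.0569), and it was called between J0571 and Q0990 (1.65, adjusted p = 0.00723). Its responses of -2.24 in J1721 and -2.6 in Q0990 lay between -4.81 in C24 and -0.95 in J0571.

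**Figure D4:**
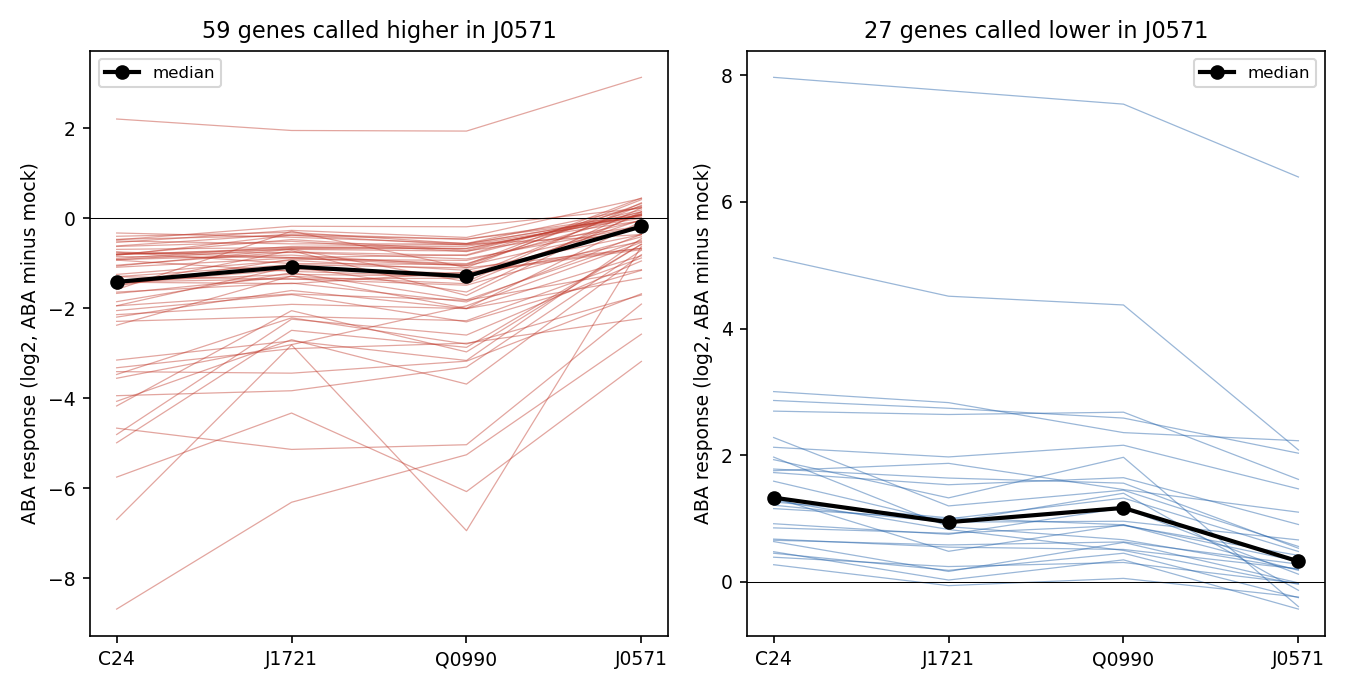
ABA response (log2, ABA minus mock) in the 4 crosses of the 59 genes called higher (left, red) and the 27 called lower (right, blue) in J0571, 1 thin line per gene and the median in black. The medians at J1721 and Q0990 (-1.08 and -1.29 left, 0.94 and 1.17 right) lie near those of C24, and that of J0571 lies near 0.

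Direct tests of J0571 against the other drivers reuse the J0571 libraries and called 65 genes against J1721 (0.305%) and 83 against Q0990 (0.389%). XTH16 responded in J1721 by -1.08 and in Q0990 by -1.64, and the J0571 response was higher by 1.31 and 1.87 (adjusted p = 1.98e-05 and 9.89e-08). Prx37 gave 1.32 and 1.3 (adjusted p = 2.44e-07 and 1.68e-07), and GLIP2 3.23 and 3.12 (adjusted p = 9.84e-06 and 1.01e-05). PYL6 responded by -2.21 in J1721, and its difference from J0571 was not called there (0.51, adjusted p = 0.374), while against Q0990 it was (1.09, adjusted p = 0.00226). FLA6 was called against neither (0.713 and 0.337), and its responses there, 1.2 and 1.45, lay between 2.28 in C24 and 0.56 in J0571. P5CS1 (adjusted p = 0.00712 and 0.000845), DAA1 (0.00712 and 0.00322) and ALMT12 (0.0186 and 0.0307) were the only genes of the 27 called against both, and 15 of the 27 were called against neither. Of the 59, 29 were called against both and 13 against neither. As the J0571 libraries are shared, these counts mark a limit and are no independent support.

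Most genes that ABA raised or lowered in the other crosses had a weaker response in J0571 than in C24. Genes that respond to ABA were picked from the mean response of J1721 and Q0990, whose libraries do not enter the difference, at an adjusted p under 0.05 and an absolute log2 change of at least 1. Over the 1112 raised genes (5.22% of those tested) the median difference was -0.21, and 69.8% had a weaker rise in J0571 than in C24. Over the 658 lowered genes (3.09%) it was 0.32, and 71.4% had a weaker fall. Over all genes the median was 0.01 and 48.1% lay below 0. Of the raised genes 13 were called weaker and 1 stronger in J0571, and of the lowered genes 35 (5.32%) weaker and 0 stronger. The median response of the lowered genes was -1.45 in C24, -1.37 in J1721, -1.54 in Q0990 and -1.18 in J0571, and that of the raised genes was 1.68, 1.68, 1.64 and 1.44. J1721 and Q0990 picked these genes, so only the medians of C24 and J0571 are free of that selection. These are medians over genes, which are not independent replicates. Without mock library 1 of every cross the median of the lowered genes was 0.21, and without J0571 ABA library 2 it was 0.23.

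**Figure D5:**
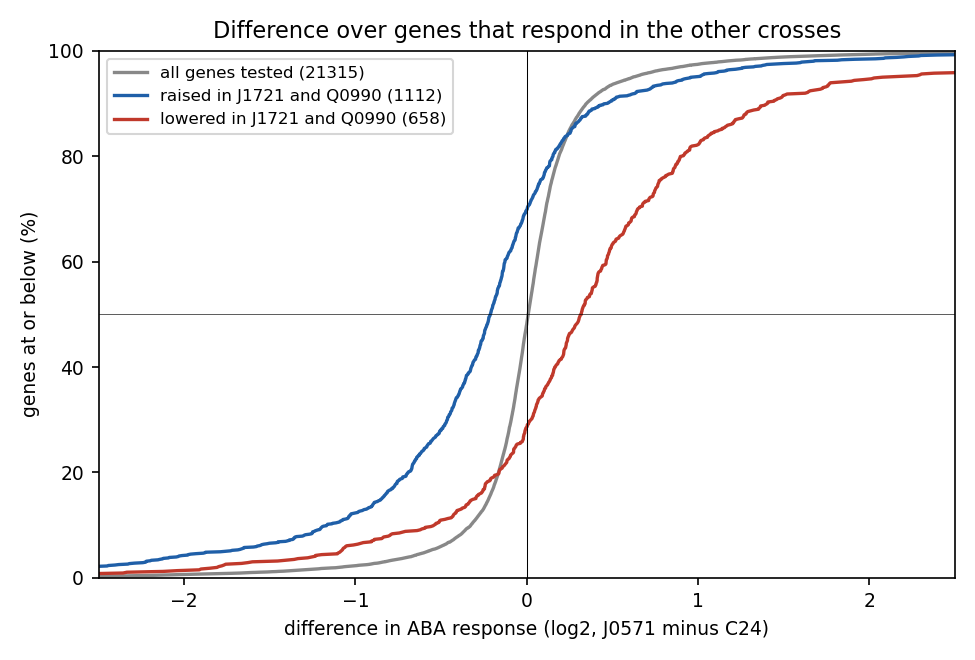
Share of genes (y axis, percent) at or below each value of the difference in ABA response (x axis, log2, J0571 minus C24, shown from -2.5 to 2.5) for all genes tested (grey), 1112 genes raised (blue) and 658 genes lowered (red) by ABA in J1721 and Q0990. The blue curve crosses 50% left of 0, at -0.21, and the red one right of 0, at 0.32.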

How the data were processed

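RNA was taken from root pools of 24 samples, and the authors deposited raw counts per gene in 1 table of 34218 features. HISAT2 and HTSeq are named in the submitters' processing notes. Versions, genome build, annotation and strand setting are not stated there, and reads of overlapping, antisense or near-identical genes may not have been told apart. Libraries held 38542817 to 61555387 counts. RefSeq's gene table (TAIR10.1) matched 32548 features and named 10804.

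The counts were scaled by edgeR's TMM factors and fitted with edgeR 4.0.16 (limma 3.58.1, R 4.3.3) as 8 group means over 24 libraries after edgeR's filter, which left 21315 genes. The quasi-likelihood test of the interaction was adjusted by Benjamini-Hochberg over all genes and called at 0.05. The procedure was tested on simulated data with the same spread for every gene and changes placed only in genes above a minimum level. That test does not cover low genes or a spread that varies between genes. DESeq2 1.42.0, other filters and scaling, a replicate block, fits without 1 library and a fit without mock library 1 of every cross were alternatives.

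Levels are CPM on normalized library sizes. Values in every library are given for the 12 largest called differences in each direction, leaving out organelle genes and those whose mean log2 CPM was under 0. Other called genes with a name, called list members and all PP2C, receptor, SnRK2 and LEA members are named too. Any gene named outside this rule was chosen after its values were seen. The genes, lists and tests were chosen with earlier results of these data known.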

Additional observations from a re-analysis of the deposited data

Results flagged for a closer look

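A difference between the 2 crosses in the ABA response, by the test of that difference itself, was called for 86 genes. For the 12 largest called differences in each direction among genes whose mean log2 CPM was not under 0, the values (log2, J0571 minus C24) were 3.86 for AT2G43140, 3.26 for AT3G46400, 3.23 for PTR3, 3.02 for AT1G64910, 2.76 for GLIP2 and 2.7 for GSTU11. AT3G27950 had 2.57, AT1G10400 2.31, XTH16 2.18, AT1G78860 1.77, PYL6 1.77 and AT3G20360 1.73. In the other direction AT5G66780 had -3.04, AT2G39980 -2.32, FLA6 -1.72, BGLU24 -1.57, ROPGEF12 -1.34 and AT4G39700 -1.33. ALMT12 had -1.25, AT5G46870 -1.15, DAA1 -1.08, AT1G76470 -0.94, AT2G21130 -0.93 and AT5G43230 -0.91.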

How the results depend on the processing

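No called gene reversed its direction in any of the 19 alternatives. Of the 86 calls 43 held in all of them, 37 of a higher and 6 of a lower response. In every fit without 1 library 39 of 59 higher and 8 of 27 lower calls held. Some calls were lost in most such fits, whichever library was left out, as MIF2 was in 11 of 12 with differences of -1.92 to -1.59. Those fits called 57 to 90 genes, 44 to 63 higher and 12 to 27 lower. Leaving out J0571 mock library 1 gave 57, as did leaving out C24 ABA library 3, and so did the fit without mock library 1 of every cross, of which 41 were higher and 16 lower. DESeq2 called 197 genes, 91 higher and 106 lower, with all 86 among them. Without a filter on low counts 42 genes were called lower and 66 higher. With only the 12 libraries in the fit 79 were called, of which 62 were among the 86. The cause of these shifts was not tested. Taken over all 4 groups, same-numbered libraries did not deviate together (18 pairs, correlations -0.37 to 0.17), so the numbers were not taken as pairs. Between mock and ABA libraries of J0571 the same-numbered correlations were 0.098, 0.165 and 0.133, and the others ran from -0.108 to 0.004. In C24 the same-numbered ones were 0.151, -0.198 and 0.174, and the others ran from -0.261 to 0.188. Pairing within each cross separately was not tested. With the replicate number as a block 71 genes were called, 52 higher and 19 lower, all among the 86. At an absolute log2 change of at least 2 the median difference was -0.32 over raised genes and 0.66 over lowered genes. Without mock library 1 of every cross it was 0.21 over lowered genes, and fits without 1 library gave 0.23 to 0.35 over lowered and -0.29 to -0.15 over raised genes. Alternatives for these medians other than the threshold and the scaling were added after seeing the data. Depth limits the low genes: those with no counts in a group have no fold.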

Other observations

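Genes of aliphatic glucosinolate synthesis, which make sulfur-rich defence compounds from methionine, had the lowest median difference of the lists. All 13 were lowered by ABA in C24 and 12 in J0571 (all genes: 15.4% and 9.87%). Median responses were -2.16 and -2.7, 12 differences lay below 0, and 0 were called by edgeR, at an unadjusted p under 0.05 or by DESeq2. For 21 genes of iron uptake the median response was -0.36 in C24 and -0.7 in J0571, and 9 and 12 were lowered (all genes: 15.4% and 9.87%). The difference was called for 0 by edgeR or DESeq2, with 1 at an unadjusted p under 0.05. Of 29 aquaporins 19 were raised in C24 and 17 in J0571 (all genes: 18.6% and 14.4%). An unadjusted p under 0.05 came with a lower value for 8 and a higher value for 1 (all genes: 4.05% and 4.13%). Of the 29 aquaporins edgeR called 0 and DESeq2 called 1, lower. The 29 cell division genes had a median difference of 0.03, with 0 called by edgeR or DESeq2 and 1 at an unadjusted p under 0.05.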
